A study of Homo sapiens with 15 samples.

Results

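The long noncoding RNAs described here are 10 small nucleolar RNA (snoRNA) host transcripts, GAS5, SNHG1, SNHG5, SNHG6, SNHG7, SNHG8, SNHG12, SNHG15, SNHG16 and EPB41L4A-AS1, measured in cytosolic extracts (CEs) of U2OS cells and in material pelleted from them. They were taken from a list of named snoRNA host genes and kept where no condition, of 5, had more than 1 replicate under 10 counts. All 10 passed, among 16612 of 57500 counted genes that passed the same rule. U2OS is a human osteosarcoma cell line, and the labels give the genotype of every library as wild type, whereas the methods of the study name the pelleted condensates after YFP-G3BP1. CEs received dsRNA (250 nM), silvestrol (2 µg/ml), PEG (1%) or no addition (mock), the reactions lasted 2 h, and the pellet of each reaction was collected by centrifugation. Input was CE that had not been pelleted, and no reaction time is given for it. In values over input, pelleting and any change of the RNA during the 2 h reaction therefore cannot be told apart. dsRNA is a viral mimic that activates the kinase PKR, silvestrol clamps the helicase eIF4A on mRNA and blocks initiation, and PEG is a molecular crowder. Poly(A)-selected RNA was sequenced in 3 biological replicates per group, 15 libraries in all, so that every value describes polyadenylated host RNA and not the mature snoRNAs. A pellet holds whatever sediments, so RNA in condensates and other sedimenting RNA cannot be told apart.

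snoRNA host genes carry snoRNAs inside their introns. The introns are spliced out and trimmed to mature snoRNAs, which guide ribose methylation (box C/D) or pseudouridylation (box H/ACA) of ribosomal RNA in the nucleolus, while the spliced and polyadenylated exons are exported to the cytoplasm. Many host RNAs begin with a terminal oligopyrimidine (TOP) tract, the element that ties ribosomal protein mRNAs to mTOR signalling, and several hold only short reading frames and are degraded by nonsense-mediated decay (NMD) once ribosomes engage them. GAS5 was first described as a transcript that accumulates in growth-arrested cells.

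The transcript starts are shown for 5 host genes with an annotated transcript that opens with such a tract and is not of the retained-intron class, because this is the feature by which host RNAs resemble ribosomal protein mRNAs. Each line gives the first 30 bases of 1 transcript of GENCODE release 29 on GRCh38, 5′ to 3′ in the sense of the gene, and capitals mark the unbroken run of pyrimidines from the first base. For each gene the transcript with the longest run was taken, and the longest transcript among ties, a choice made after the sequences had been seen. The ends of 8 of the 10 members are the same in this annotation as in the deposited files, with SNHG5 and SNHG12 the exceptions. No line is printed for the other 5 members, although SNHG6 among them also has 3 annotated transcripts with such a start.
GAS5: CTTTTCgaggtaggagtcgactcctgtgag
SNHG5: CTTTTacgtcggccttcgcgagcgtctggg
SNHG8: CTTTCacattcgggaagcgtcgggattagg
SNHG12: CCTTCCTgcgcgccgttccccgctagtcgc
SNHG16: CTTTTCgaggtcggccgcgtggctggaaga
A start with C followed by at least 4 pyrimidines was found, on the transcript's own strand, in 20 of the 130 annotated transcripts of the 10 members (15.4%), against 2.41% of all 206694 transcripts in the annotation. Of the 10 members, 7 had at least 1 such transcript, against 15.7% of the kept genes. At the starts given by RefSeq (GRCh38.p14), 2 of the 8 members with an entry, SNHG5 and SNHG12, had such a run, against 4.07% of 35116 starts, while GAS5, SNHG8 and SNHG16 did not. Host genes have many annotated transcripts, up to 29 for GAS5, and an annotated start is not a measured one in these cells. The 5 printed transcripts are 470 to 682 nt long.

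The members lie on 9 chromosomes, and coordinates are those of the deposited files on GRCh38. GAS5 (ENSG00000234741) lies at chr1:173863900-173868882 on the minus strand, and RefSeq places 11 snoRNA genes inside it, the most of any member. SNHG1 (ENSG00000255717) lies at chr11:62851988-62855914 on the minus strand and holds 9. SNHG12 (ENSG00000197989), at chr1:28578538-28582983 on the minus strand, holds 4, and SNHG16 (ENSG00000163597), at chr17:76557766-76565348 on the plus strand, holds 3. SNHG5 (ENSG00000203875, chr6:85660950-85678736, minus) and SNHG7 (ENSG00000233016, chr9:136721366-136728184, minus) hold 2 each. The remaining members hold 1 snoRNA gene each. They are SNHG6 (ENSG00000245910, chr8:66921684-66926398, minus), SNHG8 (ENSG00000269893, chr4:118278709-118279823, plus), SNHG15 (ENSG00000232956, chr7:44983023-44986961, minus) and EPB41L4A-AS1 (ENSG00000224032, chr5:112160526-112164276, plus). The counted exons of a member summed to between 923 nt for SNHG8 and 5362 nt for SNHG16, with a median of 3504 nt against 4427.5 nt over all kept genes. These sums take in every annotated variant, 48 of which are retained-intron transcripts, while the median spliced transcript of a member was 470 to 1473 nt long.

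The snoRNAs themselves were almost unmeasured. Of 24 annotated snoRNA genes inside members that had a row of their own, 20 lay within a counted exon of the host and were listed at 0 in all 15 libraries. The other 4, among them SNORD99 in SNHG12 and SNORD30 in SNHG1, had at most 18 counts in any library. A further 7 annotated genes overlap members on the opposite strand. The strand setting of the counting is not given in the sources used here. In the stretches they share, their reads and those of the members could not be told apart.

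Total counts per library ranged from 15341973 to 46939993, with 15341973 to 25675182 in PEG pellets and 23101982 in input replicate 1, and more in every other library. Of 9 osteoblast and mesenchymal markers, 6 had at least 10 counts in every input library, while COL1A2, BGLAP and SP7 were near 0. Of 7 hepatocyte markers only SERPINA1 did. Mitochondrial transcripts took 0.369 to 0.473% of counts in input, 0.951 to 1.43% in mock, dsRNA and silvestrol pellets and 0.468 to 0.716% in PEG pellets. A list of 7 nuclear RNAs, 3 of which (RMRP, RPPH1 and RN7SK) were at 0 throughout, took 0.0741 to 0.108% in input, 0.0922 to 0.182% in mock, dsRNA and silvestrol pellets and 0.0538 to 0.109% in PEG pellets. Whether either of these moves played a part in the values of the host RNAs was not tested. Replicate 1 stood apart for several host RNAs in every group, so the counts of members called are also given without it. The labels call the replicates biological, and p-values measure the spread between these libraries.

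In input the host RNAs spanned a wide range of abundance. Levels are normalised read counts (CPM) after TMM scaling, and levels of different genes were compared per kb of counted exon. That length takes in every annotated variant, so the order depends in part on the annotation. In plain CPM, GAS5 (166), SNHG16 (126) and SNHG7 (92.0) exceeded SNHG8 (82.3). SNHG6 was the most abundant at 148 ± 2.23 CPM per kb (SD, n = 3), followed by SNHG8 at 89.2 ± 6.95 and GAS5 at 45.8 ± 20.0. SNHG16 had 23.6 ± 2.03, SNHG7 21.2 ± 4.27 and SNHG5 20.1 ± 1.64 CPM per kb. These levels lay close together, and in this order GAS5 overlapped SNHG16, SNHG16 overlapped SNHG7, and SNHG7 overlapped SNHG5. SNHG1 reached 12.7 ± 0.716, EPB41L4A-AS1 6.03 ± 1.79, SNHG15 2.61 ± 0.307 and SNHG12 2.54 ± 0.105 CPM per kb, and the libraries of the last pair overlapped. The median of all kept genes was 4.26 CPM per kb, so 8 of the 10 members lay above it. Together the members took 0.0676 to 0.0865% of all counts in input, 0.0509 to 0.0831% in mock, dsRNA and silvestrol pellets and 0.148 to 0.178% in PEG pellets, where every library exceeded every library of the other groups.

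**Figure D1:**
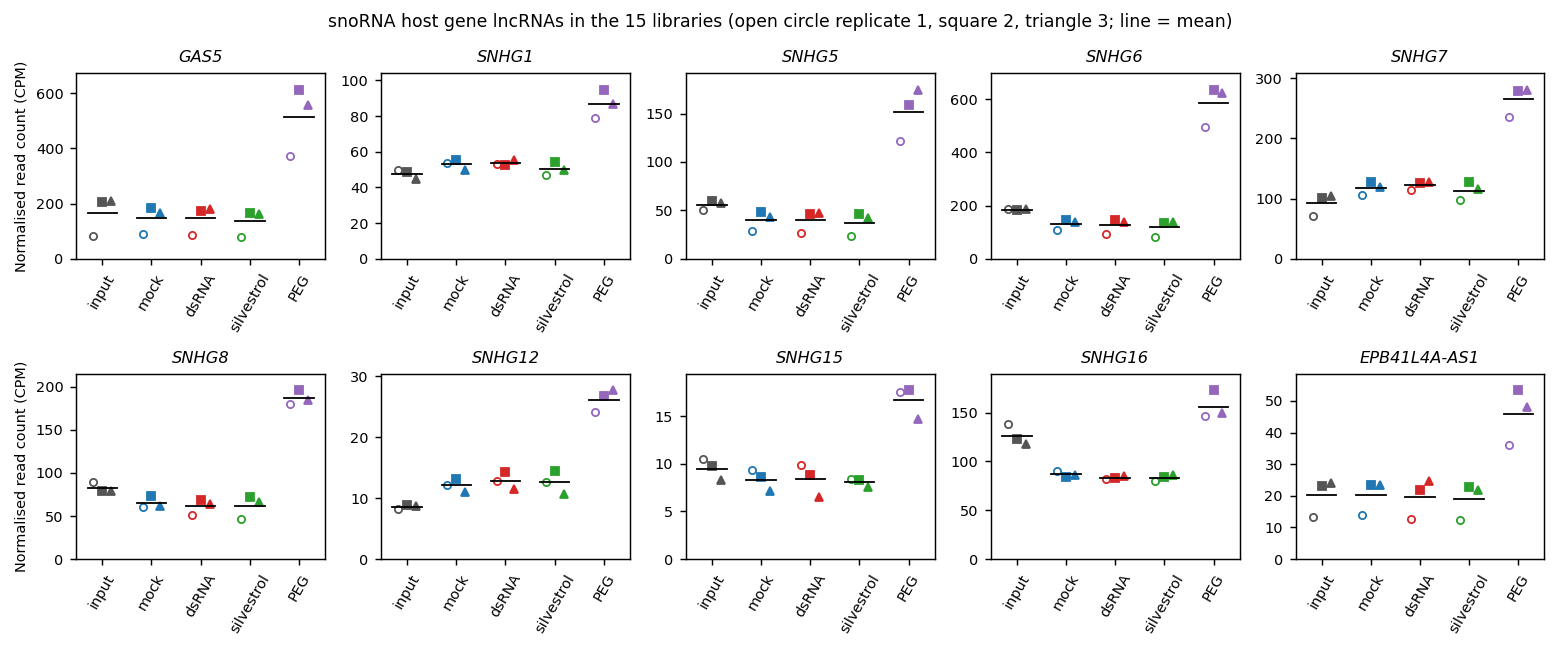
Normalised read counts (CPM, linear axis from 0) of the 10 host RNAs in each of the 15 libraries, by group, with open circles for replicate 1, squares for replicate 2, triangles for replicate 3 and a line at the mean of 3. The PEG libraries lie above all others for every member, while replicate 1 of GAS5 and EPB41L4A-AS1 lies below the other replicates in every group.

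Pellets that form without an added stress stimulus were examined first, as mock pellets over input. The paper reports that making the extract itself caused mild hypotonic stress. The host RNAs did not move together in mock pellets. SNHG12 was enriched 1.45-fold, SNHG16 and SNHG6 were depleted to 0.706 and 0.727 of input, and the other 7 did not pass the test. The median log2 fold change of the 10 was -0.15, against 0.0012 over all genes. The 1 member called higher stands beside 17.6% of all genes, and the 2 called lower beside 15.8%, where a call is an adjusted p under 0.05 (edgeR, Benjamini-Hochberg over all 16612 genes). DESeq2 called 1 higher and 2 lower, beside 19.8% and 19.0% of all genes, and edgeR with library size alone in place of TMM called 1 and 1, beside 19.6% and 13.9%. Mock and input ranges were separate for 3 members that were higher and 4 that were lower, beside 24.1% and 26.0% of all genes.

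SNHG12, whose introns encode box H/ACA snoRNAs and SNORD99, had 8.17, 8.86 and 8.66 CPM in input replicates 1 to 3 and 12.1, 13.2 and 11.0 CPM in mock. Every mock library exceeded every input library. Its log2 fold change was 0.53 ± 0.13 (SE, adjusted p = 0.0184). SNHG16, the host of SNORD1 family members, had 138.5, 122.6 and 117.8 CPM in input and 90.4, 84.3 and 86.4 CPM in mock, and all 3 mock libraries were below all input libraries. Its log2 fold change was -0.50 ± 0.11 (adjusted p = 0.0130). SNHG6, the host of SNORD87, had 187, 182 and 185 CPM in input and 107, 146 and 140 CPM in mock, with replicate 1 the lowest of the mock libraries and no overlap between the groups. Its log2 fold change was -0.46 ± 0.14 (adjusted p = 0.0372).

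In this fit, which does not use the replicate numbers, each of these 3 calls was lost when certain single libraries were left out. For SNHG6 the adjusted p rose to 0.0531, 0.0793 and 0.0888 without input replicates 1, 2 and 3, and to 0.0584 and 0.0865 without mock replicates 2 and 3. For SNHG12 it was 0.0686 and 0.0718 without input replicates 2 and 3 and 0.0775 without mock replicate 2. For SNHG16 it was 0.0567 and 0.0614 without mock replicates 2 and 3. Over all 6 such fits log2 fold changes stayed between -0.54 and -0.34 for SNHG6, between 0.47 and 0.60 for SNHG12 and between -0.58 and -0.45 for SNHG16.

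Replicate numbers paired the libraries, and a fit with the replicate as a block called 6 members in place of 3. It called 2 higher, SNHG7 and SNHG12, beside 32.5% of all genes, and 4 lower, SNHG5, SNHG6, SNHG8 and SNHG16, beside 30.1%. For the 3 members called without the block, the adjusted p with it was 0.000175 (SNHG6), 0.000242 (SNHG12) and 2.62e-05 (SNHG16). SNHG5, the host of SNORD50A and SNORD50B, was below its input in all 3 pairs, with 50.8, 59.4 and 57.8 CPM in input and 28.5, 48.5 and 43.1 CPM in mock (log2 fold change -0.45, adjusted p = 0.111, and 0.000247 with the block). SNHG8, the host of SNORA24, was also lower in all 3 pairs, at 89.7, 78.7 and 78.6 CPM in input and 60.4, 73.4 and 62.2 CPM in mock (-0.30, adjusted p = 0.0940, and 0.00821 with the block). SNHG7, the host of SNORA17A and SNORA17B, went the other way, with 70.8, 100.4 and 104.8 CPM in input and 105.5, 127.1 and 118.5 CPM in mock (0.38, adjusted p = 0.115, and 0.000620 with the block). The groups did not overlap for SNHG5, SNHG8 or SNHG7. DIPK1B, named FAM69B in GENCODE and overlapping SNHG7 on the opposite strand, had a log2 fold change of 0.61 in the same comparison (adjusted p = 0.144, and 8.18e-06 with the block), and its part in the SNHG7 value was not tested.

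SNHG1 (0.19), SNHG15 (-0.15), GAS5 (-0.15) and EPB41L4A-AS1 (0.04) passed neither fit. GAS5 had 82.4, 207 and 209 CPM in input and 91.0, 182 and 167 CPM in mock, so that replicate 1 was far below the others in both groups and the groups overlapped (SE 0.38, adjusted p = 0.790). EPB41L4A-AS1 showed the same split, with 13.2, 23.3 and 24.0 CPM in input and 13.9, 23.5 and 23.5 CPM in mock. In input and in the mock, dsRNA and silvestrol pellets, replicate 1 of GAS5 was 0.395 to 0.522 times the mean of replicates 2 and 3, and that of EPB41L4A-AS1 0.543 to 0.593 times. SNHG15 was at the other end, with replicate 1 at 1.06 to 1.28 times that mean. Without replicate 1, 3 members were called higher and 4 lower, beside 31.9% and 30.6% of all genes. SNHG1 (0.21, adjusted p = 0.0302) and GAS5 (-0.22, adjusted p = 0.0110) were then among the calls, and SNHG8 (-0.18, adjusted p = 0.0636) was not.

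The question of whether translational repression changed this picture was addressed with the dsRNA and silvestrol pellets. The same 3 members were called as in mock, SNHG12 higher and SNHG6 and SNHG16 lower, in both pellets over input. Over input, log2 fold changes of the 10 members ran from -0.56 to 0.62 with dsRNA (median -0.14) and from -0.61 to 0.59 with silvestrol (median -0.23). The 1 member called higher stands beside 21.1% of all genes with dsRNA and 19.4% with silvestrol, and the 2 called lower beside 19.6% and 18.1%. All 3 pellets were compared with the same input libraries, so these values share their error. DESeq2 called 2 higher and 3 lower with dsRNA, beside 22.5% and 21.4%, and 1 and 2 with silvestrol, beside 21.2% and 20.6%. With library size alone 1 was called higher and 1 lower in each, beside 22.5% and 17.8% with dsRNA and 21.2% and 16.2% with silvestrol. Groups did not overlap for 3 higher and 4 lower members with dsRNA, beside 26.3% and 28.9%, and for 1 higher and 4 lower with silvestrol, beside 25.7% and 27.8%.

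SNHG12 had 12.7, 14.2 and 11.4 CPM with dsRNA and 12.7, 14.5 and 10.7 CPM with silvestrol, all above input, at log2 fold changes of 0.62 ± 0.14 (adjusted p = 0.0101) and 0.59 ± 0.15 (adjusted p = 0.0190). SNHG16 had 82.3, 83.1 and 84.8 CPM with dsRNA and 80.0, 84.4 and 86.2 CPM with silvestrol, a tight group below every input library, at -0.56 ± 0.11 (adjusted p = 0.00727) and -0.57 ± 0.11 (adjusted p = 0.00755). SNHG6 had 92.6, 145.6 and 139.7 CPM with dsRNA and 82.2, 135.0 and 137.3 CPM with silvestrol. Replicate 1 was lowest in both pellets and no library reached input, at -0.51 ± 0.18 (adjusted p = 0.0497) and -0.61 ± 0.20 (adjusted p = 0.0404).

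Of these, the SNHG16 calls alone were kept whichever 1 library was left out. For SNHG12, the adjusted p with dsRNA was 0.0502 without dsRNA replicate 2, and with silvestrol it was 0.0652, 0.0704 and 0.0813 without input replicates 2 and 3 and silvestrol replicate 2. For SNHG6 it was 0.0926, 0.0962 and 0.112 with dsRNA, and 0.0674, 0.0740 and 0.0843 with silvestrol, without input replicates 1, 2 and 3. Without replicates 2 and 3 of the pellet itself it was 0.0548 and 0.0789 with dsRNA and 0.0597 and 0.0535 with silvestrol.

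With the replicate block, the same 2 members were called higher and the same 4 lower in both pellets as in mock, beside 31.0% and 29.1% of all genes with dsRNA and 30.8% and 28.7% with silvestrol. For SNHG6, SNHG12 and SNHG16 the block gave an adjusted p of 0.00831, 0.00140 and 0.00133 with dsRNA and 0.00223, 0.00139 and 0.000690 with silvestrol. SNHG5 gave -0.45 with dsRNA (adjusted p = 0.126, and 0.0118 with the block) and -0.55 with silvestrol (0.0986, and 0.00262). SNHG8 gave -0.39 with dsRNA (0.0624, and 0.0273) and -0.38 with silvestrol (0.108, and 0.0278), and SNHG7 gave 0.46 (0.0542, and 0.00506) and 0.33 (0.176, and 0.0128). Without replicate 1, 3 members were called higher and 5 lower in each pellet, beside 33.6% and 33.2% of all genes with dsRNA and 32.9% and 31.9% with silvestrol.

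Set directly against mock, neither dsRNA nor silvestrol moved a host RNA past the test. Log2 fold changes of the 10 members ran from -0.09 (SNHG8) to 0.08 (SNHG12) with dsRNA and from -0.15 (SNHG6) to 0.05 (SNHG12) with silvestrol. edgeR called 0 members in either comparison, 0 of them had an unadjusted p under 0.05, and DESeq2 called 0. Over all genes edgeR called 0 (0%) in both, with 374 genes for dsRNA and 35 for silvestrol at an unadjusted p under 0.05, and DESeq2 called 65 (all lower, 0.391%) and 0. With the replicate block 466 and 2 genes were called over all genes, and 0 of the members in either comparison. Without replicate 1, 0 members were called in either, beside 0.0361% of all genes called higher and 1.16% lower with dsRNA and 0% and 0.00602% with silvestrol. Standard errors in the fit without the block ran from 0.085 (SNHG16) to 0.35 (GAS5) with dsRNA and from 0.083 (SNHG16) to 0.35 (GAS5) with silvestrol. For GAS5 they take in the gap between replicate 1 and the others, so that fit could not detect a moderate difference in GAS5. SNHG16 was measured far more closely. Within pairs, the log2 ratios of GAS5 to mock were -0.095, -0.080 and 0.12 with dsRNA and -0.22, -0.14 and -0.040 with silvestrol.

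**Figure D2:**
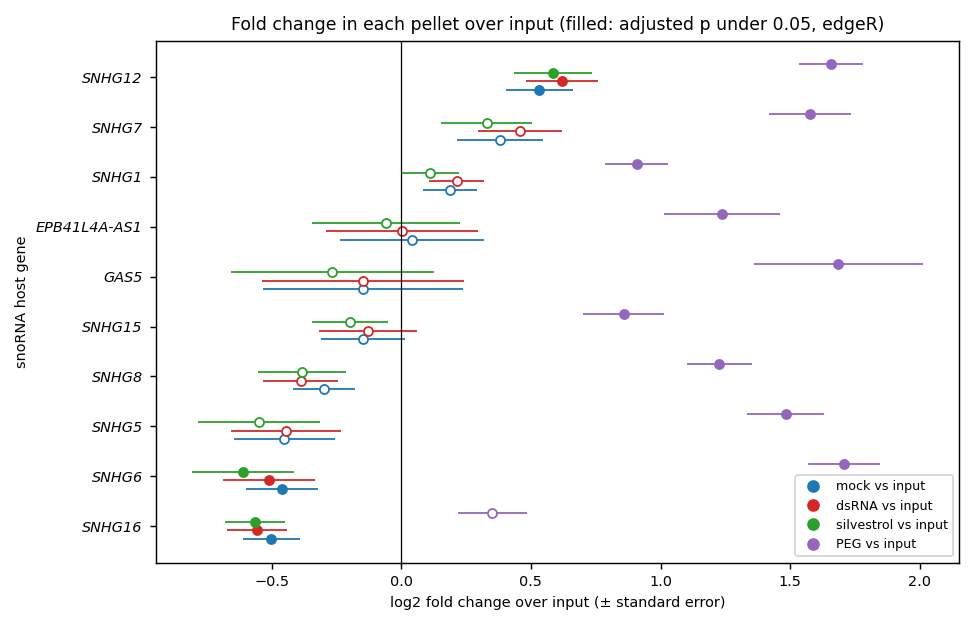
Log2 fold change over input with its standard error for each host RNA in mock, dsRNA, silvestrol and PEG pellets, each with 3 libraries against the same 3 input libraries; filled points passed edgeR's test at an adjusted p under 0.05. The mock, dsRNA and silvestrol points of a gene lie close together and on either side of 0 depending on the gene, while the PEG points lie between 0.35 and 1.71, with SNHG16 the lowest and not called.

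In PEG pellets the host RNAs were higher. Of the 10 host RNAs, 9 were enriched over input by 1.81-fold to 3.27-fold, beside 25.5% of all genes called higher, and 0 were depleted, beside 25.9%. SNHG16 gave 1.28-fold and did not pass. The median log2 fold change was 1.36, against -0.0096 over all genes, and the groups did not overlap for any of the 10, beside 28.7% of all genes whose PEG libraries all lay above input and 33.0% whose PEG libraries all lay below.

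SNHG6 had 496, 634 and 624 CPM in PEG pellets against 182 to 187 CPM in input, a log2 fold change of 1.71 ± 0.14 (adjusted p = 0.000217). GAS5 rose to 373, 611 and 558 CPM, at 1.69 ± 0.33 (adjusted p = 0.00293), and its replicate 1 was again the lowest, at 0.639 times the mean of the others. Each GAS5 library rose over its own input, by 2.18, 1.56 and 1.42 on the log2 scale. SNHG12 reached 24.1, 26.7 and 27.7 CPM, at 1.66 ± 0.12 (adjusted p = 0.000217).

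SNHG7 reached 236, 279 and 280 CPM, at 1.58 ± 0.16 (adjusted p = 0.000261). SNHG5 reached 122, 159 and 174 CPM, at 1.48 ± 0.15 (adjusted p = 0.000261). Both were above every library of every other group, although SNHG5 lay below input in the other pellets and SNHG7 above it. EPB41L4A-AS1 reached 36.2, 53.4 and 48.0 CPM (1.24 ± 0.22, adjusted p = 0.00213), and SNHG8 reached 181, 196 and 185 CPM (1.23 ± 0.12, adjusted p = 0.000269). The smaller rises were those of SNHG1, host of the SNORD25 to SNORD31 cluster, to 78.7, 94.6 and 86.9 CPM (0.91 ± 0.12, adjusted p = 0.000631) and of SNHG15, host of SNORA9, to 17.6, 17.7 and 14.8 CPM (0.86 ± 0.16, adjusted p = 0.00224).

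SNHG16 had 146, 173 and 150 CPM in PEG pellets against 117.8 to 138.5 CPM in input, a narrow gap between groups that did not overlap. Its log2 fold change was 0.35 ± 0.13 (adjusted p = 0.0519), and the pairs gave 0.078, 0.50 and 0.35. It also passed with DESeq2 (adjusted p = 0.0289) and with all 15 libraries in 1 fit (0.0114). With the replicate block it passed (adjusted p = 0.0474), which made 10 of 10 called, beside 28.0% of all genes called higher and 27.8% called lower in that fit. Leaving out input replicate 1, the highest input library for this gene, gave 0.45 (adjusted p = 0.00340), while without any other 1 library it did not pass, at values down to 0.23 without PEG replicate 2 (adjusted p = 0.212). Without replicate 1 in both groups, all 10 members were called higher, beside 34.9% of all genes called higher and 35.6% called lower.

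**Figure D3:**
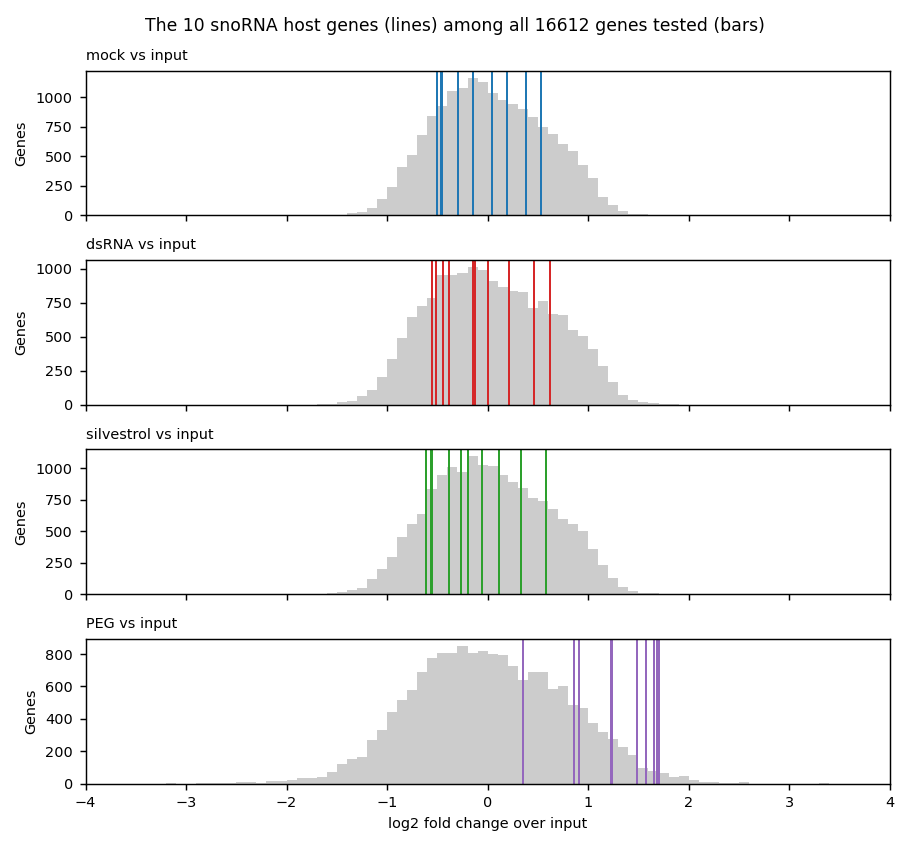
Distribution of log2 fold changes over input of all 16612 genes tested (grey bars, number of genes per 0.1 of log2 fold change, values beyond the axis placed in the end bars) with a line for each of the 10 host RNAs, in mock, dsRNA, silvestrol and PEG pellets. The lines are spread through the middle of the distribution in the first 3 panels, and with PEG run from 0.35 (SNHG16, the 66.6th percentile) to 1.71 (SNHG6), with a median at 1.36.

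Among all genes, the members' PEG values lay at the 66.6th (SNHG16) to the 98.8th (SNHG6) percentile of log2 fold changes over input, with a median at the 95.9th. Over mock, PEG pellets had more of all 10 host RNAs, and every PEG library exceeded every mock library for each of them, beside 32.0% of all genes in that direction and 37.6% in the other. edgeR called 10 of 10 higher, beside 31.3% of all genes called higher and 32.2% called lower, and 10 of 10 without replicate 1, beside 37.2% and 37.8%. SNHG6 differed most at 2.24 ± 0.16 (adjusted p = 6.19e-06), followed by SNHG5 at 2.00 ± 0.20 (adjusted p = 2.41e-05) and GAS5 at 1.89 ± 0.26 (adjusted p = 0.000156). SNHG16, which had not passed over input, differed by 0.92 ± 0.12 (adjusted p = 0.000107), and SNHG1 had the lowest value at 0.78 ± 0.12 (adjusted p = 0.000287). The other 5 lay between 1.07 and 1.59.

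The size of the PEG enrichment depended on how libraries were scaled. With library size alone in place of TMM, the median of all genes moved to -0.36 for PEG over input and to -0.50 for PEG over mock, and the split of calls over all genes moved from 25.5% higher and 25.9% lower to 14.1% and 41.5% over input, and from 31.3% and 32.2% to 18.8% and 49.8% over mock. The members' median was then 1.01 over input, with 9 of 10 called higher, and 0.78 over mock, with 10 of 10 called higher. SNHG16 fell to 0.0094 over input on that scale. No absolute amount of RNA per pellet was measured, so a higher share of a host RNA and a lower amount of other RNA cannot be told apart.

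Transcript length moved with the same comparison. Across all 16612 genes, which are not independent, log2 fold change in PEG pellets over input and counted exon length had a Spearman's rho of -0.48, and across the 10 members, which share the same libraries, rho was -0.43. SNHG16 has the longest counted exons and the lowest PEG value. Of the 9018 genes whose counted exons were 923 to 5362 nt long, the span of the members, 34.0% were called higher and the median log2 fold change was 0.23, against 1.36 for the members. Counted exons take in every annotated variant, while the median spliced transcript of a member was 470 to 1473 nt long. These genes were therefore not matched to the members by the length of the RNA itself. In mock pellets rho was 0.18 across all genes and 0.22 across the members. The part of length in the members' values was not tested.

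Other genes of the snoRNA pathway, listed by role, are described next. Of 20 further noncoding host genes, 18 were kept (SNHG22 and MEG8 were not), and in mock pellets 1 was called higher and 2 lower (median log2 fold change -0.14), beside the same 17.6% and 15.8% of all genes, or 4 and 6 with the replicate block, beside 32.5% and 30.1%. SNHG14, the long host of the Prader-Willi region snoRNAs, rose from 98.8 ± 6.45 to 148.9 ± 7.57 CPM (0.63, adjusted p = 0.00616), and SNHG30 fell from 8.60 ± 1.27 to 5.40 ± 0.849 CPM (-0.63, adjusted p = 0.0332). With PEG, 12 of these 18 were called higher and 2 lower over input, beside 25.5% and 25.9% of all genes, with a median of 0.83. SNHG9 was highest, from 3.43 ± 1.54 to 14.3 ± 2.64 CPM (2.13, adjusted p = 0.000806), and SNHG4 lowest, from 15.5 ± 3.09 to 5.59 ± 1.93 CPM (-1.45, adjusted p = 0.00223).

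The 47 protein-coding host genes, most of them genes of ribosomal proteins and translation factors, gave 3 called higher and 23 lower in mock pellets (median -0.52), beside 17.6% and 15.8% of all genes, and 7 and 35 with the block, beside 32.5% and 30.1%. NCL, which encodes nucleolin, rose from 966 ± 250 to 2348 ± 286 CPM (1.32, adjusted p = 0.00473), and RPL39, a ribosomal protein gene, fell from 264 ± 31.0 to 135 ± 24.1 CPM (-0.93, adjusted p = 0.00677). With dsRNA, 4 were called higher and 24 lower over input, beside 21.1% and 19.6%, and with silvestrol 3 and 23, beside 19.4% and 18.1%, or 6 and 34 with the block, beside 30.8% and 28.7%. With PEG, 35 were called higher and 2 lower (median 0.90), beside 25.5% and 25.9%, from RPL23 at 1.63 (adjusted p = 0.000283) to IPO7, an importin, at -0.88 (adjusted p = 0.00179).

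The mRNAs of 18 snoRNP proteins, the core and assembly factors that bind snoRNAs, gave 0 called higher and 9 lower in mock pellets (median -0.48), beside 17.6% and 15.8% of all genes, and 0 and 14 with the block, beside 32.5% and 30.1%. NOP10, a box H/ACA core protein, fell from 62.6 ± 11.1 to 29.8 ± 3.54 CPM (-1.03, adjusted p = 0.00471), and RUVBL2, an assembly ATPase, gave the mildest called value at -0.34 (adjusted p = 0.0324). With PEG, 10 were called higher and 2 lower over input (median 0.52), beside 25.5% and 25.9%, from NOP58, a box C/D core protein, at 1.14 (adjusted p = 0.000626) to ZNHIT6 at -0.75 (adjusted p = 0.00800).

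For the mRNAs of 19 NMD and termination factors, 6 were called higher and 1 lower in mock pellets (median 0.15), beside 17.6% and 15.8% of all genes. With the block 8 and 7 were called, beside 32.5% and 30.1%. Called values in mock ran from UPF2 at 1.16 (adjusted p = 0.00362) to PNRC2 at -0.62 (adjusted p = 0.00524). With PEG, 5 were called higher and 8 lower over input (median -0.14), beside 25.5% and 25.9%, from the exon junction protein gene MAGOH at 1.59 (adjusted p = 0.00118) to the endonuclease gene SMG6 at -1.85 (adjusted p = 0.00119). Of the nuclear RNAs, 4 were kept (MALAT1, NEAT1, KCNQ1OT1 and SNORD3A). In mock pellets 0 of them were called over input, and 3 were called higher with the block. With PEG, MALAT1 (1.43, adjusted p = 0.00104) and SNORD3A (2.42, adjusted p = 0.00296) were called higher, and NEAT1 was called lower (-0.98, adjusted p = 0.00861). KCNQ1OT1 gave -0.60 (adjusted p = 0.0880, and 0.0436 with the block). SNORD3A was close to the count minimum, with 14 to 31 raw counts in input.

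**Figure D4:**
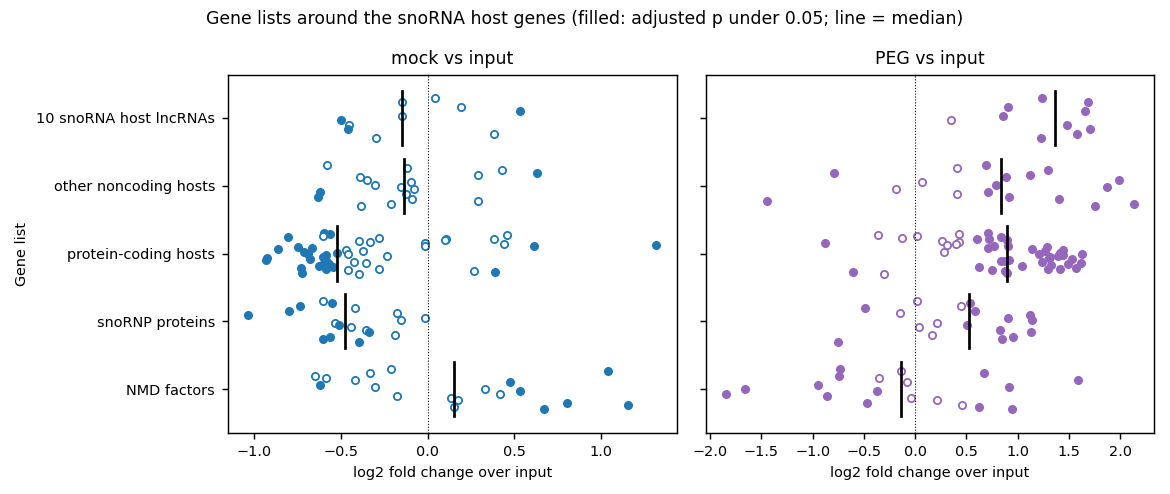
Log2 fold change over input of single genes in mock pellets (left) and PEG pellets (right), by list, with filled points for an adjusted p under 0.05 and a line at the list's median. In mock pellets the medians run from -0.52 for the protein-coding host genes to 0.15 for the NMD factors, and in PEG pellets from -0.14 for the NMD factors to 1.36 for the 10 snoRNA host lncRNAs.

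The genes that overlap the members on the opposite strand did not all move with them in PEG pellets. ZBTB37, beside GAS5, had a log2 fold change of -1.26 over input (adjusted p = 0.00142), and EPB41L4A, beside EPB41L4A-AS1, had -1.15 (adjusted p = 0.00108), both opposite in sign to the member. DIPK1B, beside SNHG7, had 1.06 (adjusted p = 0.00738), and TRNAU1AP, beside SNHG12, had 0.86 (adjusted p = 0.00188). MCMDC2, beside SNHG6, had 0.17. In raw counts, the median over the 15 libraries was 558 for TRNAU1AP against 511 for SNHG12, 2850 for DIPK1B against 4658 for SNHG7, and 605 for EPB41L4A against 870 for EPB41L4A-AS1. It was 795 for ZBTB37 against 6514 for GAS5 and 11 for MCMDC2 against 5879 for SNHG6. TRNAU1AP runs up to position 28578545 and SNHG12 from position 28578538 on, so this pair shares only a few annotated bases. How far reads were shared between these pairs was not tested.

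The genes most like the members were found over the 15 libraries, which fall into PEG pellets and the rest, by Pearson's r with the members' mean log2 CPM. Of 10915 other genes with a mean log2 CPM of at least 3, those most like the members' mean profile included PCGF1 (r = 0.9945), CTSC (0.9940), IFT43 (0.9913) and ECI1 (0.9910). Over the 5 group means they ranked only 87 (PCGF1, r = 0.9974), 59 (CTSC, 0.9981), 13 (IFT43, 0.9995) and 71 (ECI1, 0.9978). Many other genes were thus as close on that measure, and the order depends on the choice of profile. PCGF1 encodes a Polycomb protein, CTSC a lysosomal protease, IFT43 a subunit of the ciliary transport complex and ECI1 a mitochondrial enzyme of fatty acid oxidation. CTSC, as an example, had mean levels of 44.2 CPM in input, 39.5 to 40.9 in mock, dsRNA and silvestrol and 92.6 in PEG.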

How the data were processed

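For each of the 15 libraries the authors deposited a table of raw counts, not normalised. Per the submitters' processing notes, reads went through Trimmomatic 0.36, STAR 2.5.2b and featureCounts (Subread 1.5.2) on GRCh38, and the strand setting and annotation release are not given in the sources used here. A gene was kept with 10 or more counts in 2 or more replicates of every condition. Counts were scaled by TMM and tested with edgeR 4.0.16 (quasi-likelihood test; R 4.3.3), each of 7 comparisons on its own 6 libraries, with Benjamini-Hochberg adjustment. The methods of the study use DESeq2, and DESeq2 1.42.0 was an alternative, besides other scalings and filters, all libraries in 1 fit, a replicate block and libraries left out. Members and gene lists were chosen with earlier results of these data known. The genes named are all members, their overlapping genes, the extremes among called genes of each list in mock and PEG pellets over input, and the 5 genes most like the members, 1 of which is not reported here. Same-numbered libraries deviated from their group means together (r from 0.131 to 0.852 over the 7 comparisons), so the numbers in the labels were taken as pairs. In a simulation of 16612 genes, 200 of them shifted by a log2 fold change of 1, the test recovered 58.5% for mock over input (11 other calls) and 64.0% for PEG over input (8 other calls). The simulated libraries held no shared deviation of same-numbered replicates. In mock over input no member moved by more than 0.53 in either direction, so the rate does not give the power for such changes. Likeness used log2 CPM with a prior count of 2. Precision depended on the spread between replicates as well as on total counts, which were 15341973 to 46939993. GAS5 had more counts than SNHG12 but a larger standard error in mock over input (0.38 against 0.13).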

Additional observations from a re-analysis of the deposited data

How the results depend on the processing

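The PEG calls were the most stable: 9 or 10 members were called higher over input and 10 over mock under every alternative, with 0 called lower. Calls in the other pellets over input were few and moved. With the replicate block, 2 were called higher and 4 lower in each of mock, dsRNA and silvestrol over input, and with the block SNHG16 in PEG over input also passed; the block changed no other call of a member. With library size only, 1 was called lower in each of these 3 comparisons. Without a filter, 0 were called higher in mock, and 3, 4 and 3 were called lower in mock, dsRNA and silvestrol. Of all 42774 genes in that fit, 2739 were called higher in mock, and 2903, 3469 and 3277 lower in mock, dsRNA and silvestrol. With all 15 libraries in 1 fit, 1, 3 and 3 members were called lower in these, beside 3584, 4194 and 3856 of all 16612 genes. That fit called 2 members higher with dsRNA, beside 3723 genes, and DESeq2 also called 2 higher with dsRNA, beside 3732 genes. With the filter in at least one condition 1 member was called lower with dsRNA, beside 3314 of 20855 genes. With libraries left out, including both libraries of a replicate number (a choice made after seeing the data), members called higher and lower over input ranged from 0 to 3 and 0 to 4 in mock, from 0 to 3 and 0 to 5 with dsRNA and from 0 to 3 and 0 to 5 with silvestrol. Calls over all genes moved as well. In mock over input, 10382 of 16612 genes were called without replicate 1, and 0 without replicate 2 or without replicate 3. Without replicates 1, 2 and 3 in turn, the counts were 11087, 2123 and 1393 with dsRNA and 10763, 1197 and 1117 with silvestrol. The cause was not tested.

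The values whose sign turned, listed here as log2 fold changes, were not called in the fit reported above. The largest of them, GAS5 in silvestrol over input at -0.27, became 0.0085 without silvestrol replicate 1. EPB41L4A-AS1 became -0.014 in mock over input without a filter. With dsRNA over input it became -0.0022 with DESeq2's size factors, -0.039 with all 15 libraries, -0.020 with the filter in at least one condition and -0.049 without one. For dsRNA over mock, GAS5 became 0.0023 with DESeq2 and 0.0023 with its size factors, and SNHG5 became -0.0042 with library size only, -0.0042 without a filter and -0.0085 with the block. With libraries left out, GAS5 ranged from -0.49 to 0.10 in mock, from -0.47 to 0.13 with dsRNA and from -0.61 to 0.0085 with silvestrol over input. EPB41L4A-AS1 ranged from -0.20 to 0.25, from -0.22 to 0.24 and from -0.30 to 0.17 there, and SNHG15 from -0.26 to 0.022 with dsRNA. For dsRNA over mock the ranges were -0.26 to 0.27 (GAS5), -0.052 to 0.056 (SNHG1), -0.20 to 0.22 (SNHG5), -0.19 to 0.13 (SNHG6), -0.0059 to 0.14 (SNHG7), -0.20 to 0.025 (SNHG8), -0.014 to 0.16 (SNHG12), -0.11 to 0.16 (SNHG15) and -0.26 to 0.20 (EPB41L4A-AS1). For silvestrol over mock they were -0.37 to 0.16 (GAS5), -0.29 to 0.15 (SNHG5), -0.28 to 0.058 (SNHG6), -0.15 to 0.050 (SNHG7), -0.22 to 0.083 (SNHG8), -0.064 to 0.16 (SNHG12), -0.15 to 0.037 (SNHG15) and -0.31 to 0.13 (EPB41L4A-AS1).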
